A study of Mus musculus with 4 samples.

Results

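The major histocompatibility complex (MHC), interferon and STAT genes were measured by 107 of the 12422 probe sets of the array that are not controls, under 86 of its 8251 gene symbols. The rule that chose them used annotated symbols and no measured value, though it was set with earlier results of these data known. The choice took probe sets with 1 symbol that starts with H2-, Ifi, Ifn, Oas or Isg, or with Irf, Stat or Gbp and a digit, together with B2m, Tap1, Tap2, Tapbp, Mx1, Mx2 and Cd74. A probe set is a group of short oligonucleotides on the array that reads 1 transcript, and 39 of the 107 (36.4%) carry a letter in their name with which the array's maker marks a shared gene family or a relaxed design, against 2808 of all 12422 (22.6%).

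The 4 samples were total RNA of hippocampal area CA1 from young male mice of the inbred strain C57BL/6J. All 4 were controls that the experimenter had handled and left otherwise untreated. Their RNA was extracted at 1, 2, 4 or 6 hours counted from the last shock given to other mice, with 1 control sample for each hour. No shocked sample was analysed here. How many mice went into a sample is not given in the labels, and hour, animal, dissection and array cannot be told apart.

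MHC class I molecules carry peptides from inside the cell to its surface, where cytotoxic T cells read them, and they need beta-2 microglobulin and the peptide loading complex to get there. Class II molecules show peptides from outside the cell to helper T cells and in the brain are carried mainly by microglia, perivascular macrophages and infiltrating leukocytes. Interferons bind receptors whose Janus kinases phosphorylate STAT proteins. The STAT proteins, for type I interferon together with Irf9, then switch on genes that resist viruses and raise antigen presentation. Resting brain tissue is known for low levels of much of this system, although neurons do carry some class I.

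The interferon-stimulated response element, a DNA site that Irf9 binds, was searched on both strands as GAAA, any 2 bases and GAAA again, and the gamma-activated sequence, a site of STAT dimers, as TTCNNNGAA, which reads the same on both strands. The windows ran from 250 bases before to 50 bases after each gene start, from RefSeq on the build GRCm38.p6. The following stretches are shown because they hold these letters upstream of members described here, with the matches in capitals.

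B2m promoter, chr2:122147513-122147592, plus strand: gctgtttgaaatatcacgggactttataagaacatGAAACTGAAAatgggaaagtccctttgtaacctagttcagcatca
Gbp3 promoter, chr3:142559964-142560043, plus strand: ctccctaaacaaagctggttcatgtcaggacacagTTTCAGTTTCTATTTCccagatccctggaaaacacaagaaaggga
Isg15 promoter, chr4:156200852-156200931, minus strand: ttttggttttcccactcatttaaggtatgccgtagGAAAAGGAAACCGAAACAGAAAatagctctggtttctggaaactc
Ifit1 promoter, chr19:34640750-34640829, plus strand: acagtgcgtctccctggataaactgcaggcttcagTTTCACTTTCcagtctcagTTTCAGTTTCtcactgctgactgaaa
Irf1 promoter, chr11:53769889-53769967, plus strand: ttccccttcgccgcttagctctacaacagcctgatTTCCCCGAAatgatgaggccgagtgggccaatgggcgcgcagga

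The Irf1 stretch holds the gamma-activated letters and the other 4 hold the response element. Overlapping matches run together in the Isg15 and Gbp3 stretches, with 3 in Isg15 and 2 in Gbp3, and Ifit1 has 2 separate ones. Of 68 member genes with a window, 21 (30.9%) held the response element, against 3.99% of 27025 genes with a window. The gamma-activated letters were in 18 of the 68 (26.5%), against 9.55% of all, and 6 held both. Ifna5, Ifna9, Ifna15 and Ifnab were among the 6, with the same gamma-activated letters. Alpha interferon genes are near copies, so the member genes counted here are not independent. A match describes letters and does not show that a site was used.

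Values below are the deposited signal, an intensity on a linear scale, in the order of 1, 2, 4 and 6 hours. The trimmed mean was 500.3 on every array. Differences are log2 differences after quantile normalization, with signals under a floor of 35.1 set to it, and each sample is given relative to the other 3 averaged, beside the SD among these. Probe sets with a mean in the upper 60.0% of the array were tested. The 1-hour sample stood apart. Its 3' over 5' signal for Gapdh, a housekeeping transcript, was 4.52, against 1.18 to 1.37 in the others, and that for beta-actin was 2.34, against 1.76 to 2.00. Ttr, the transport protein of choroid plexus, had 2246, 199, 353 and 143, and all 5 tested choroid plexus and all 7 tested meninges probe sets were higher at 1 hour than the mean of the others. These are not independent, as an Igf2 probe set is on both lists and several of the 7 read Ptgds. Each Ptgds probe set was highest at 4 hours, and the 1-hour difference of Igfbp2, of the choroid plexus list, was only 0.0036. Of 9 tested oligodendrocyte probe sets 2 were higher, those of Mog and the brightest one for Mobp, a myelin gene. The other Mobp probe sets were lower, and the one furthest down, which carries a mark, had 322, 1802, 979.7 and 2031. The Mobp probe sets thus differed in direction. Among 6 tested probe sets of general neuron markers 1 was higher at 1 hour, with a median difference of -0.44. Of blood markers 2 of 2 tested probe sets were higher, with a median of 0.68. The part of these in the 1-hour values below was not tested. The CA1 pyramidal markers Wfs1, Pou3f1 and Neurod6, the 3 of 6 on that list that the array names, were above the floor in all samples. The number of arrays limits the precision.

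Fewer of the members than of the array as a whole read bright enough to test, and those that did often differed between the controls in the main setting. Of 107 probe sets 46 (43.0%) were tested, against 60.0% of all, for 39 genes, and all 46 were above the floor in every sample. A range of 2-fold or more over the 4 samples was found in 16 of the 46 (34.8%), against 17.9% of all 7453 tested probe sets. The median SD was 0.35 on the log2 scale for the tested members and 0.25 for all. Their median mean log2 signal was 7.98, against 8.80 for all. Below a mean log2 of 8 the range was 2-fold or more in 14 of 23 members and in 38.4% of all 2216 probe sets. Between 8 and 9 it was so in 2 of 16 members and 13.9% of all, and at 9 or more in 0 of 7 members and 6.47% of all. No test was made of these shares. Over the 2-, 4- and 6-hour samples of the same probe sets it was 11 of 46 (9.04% of all). With the normalization and filter also redone it was 10 of 45 (22.2%) without the 1-hour sample, against 8.95% of all. Without the 2-hour sample it was 7 of 43 (16.3%), against 13.8% of all. With the floor raised to the 40th percentile it was 7 of 47 (14.9%), against 13.6% of all, so that in these last settings the members' share was near that of the array.

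**Figure D1:**
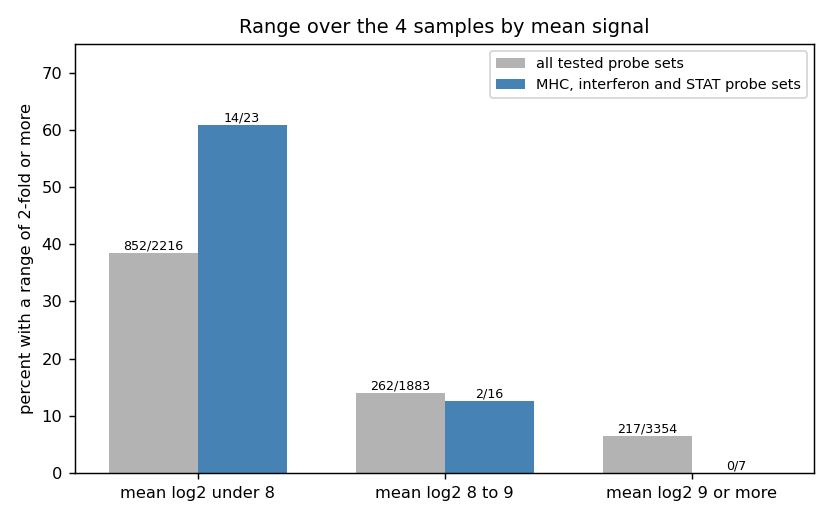
Share of tested probe sets (percent, vertical axis) whose highest and lowest of the 4 control samples lay 2-fold or more apart, in 3 bands of mean log2 signal. Grey bars are all tested probe sets and blue bars the MHC, interferon and STAT probe sets, with counts above each bar. Members exceeded the whole array in the dimmest band, with 60.9% against 38.4%, and not in the brighter bands.

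**Figure D2:**
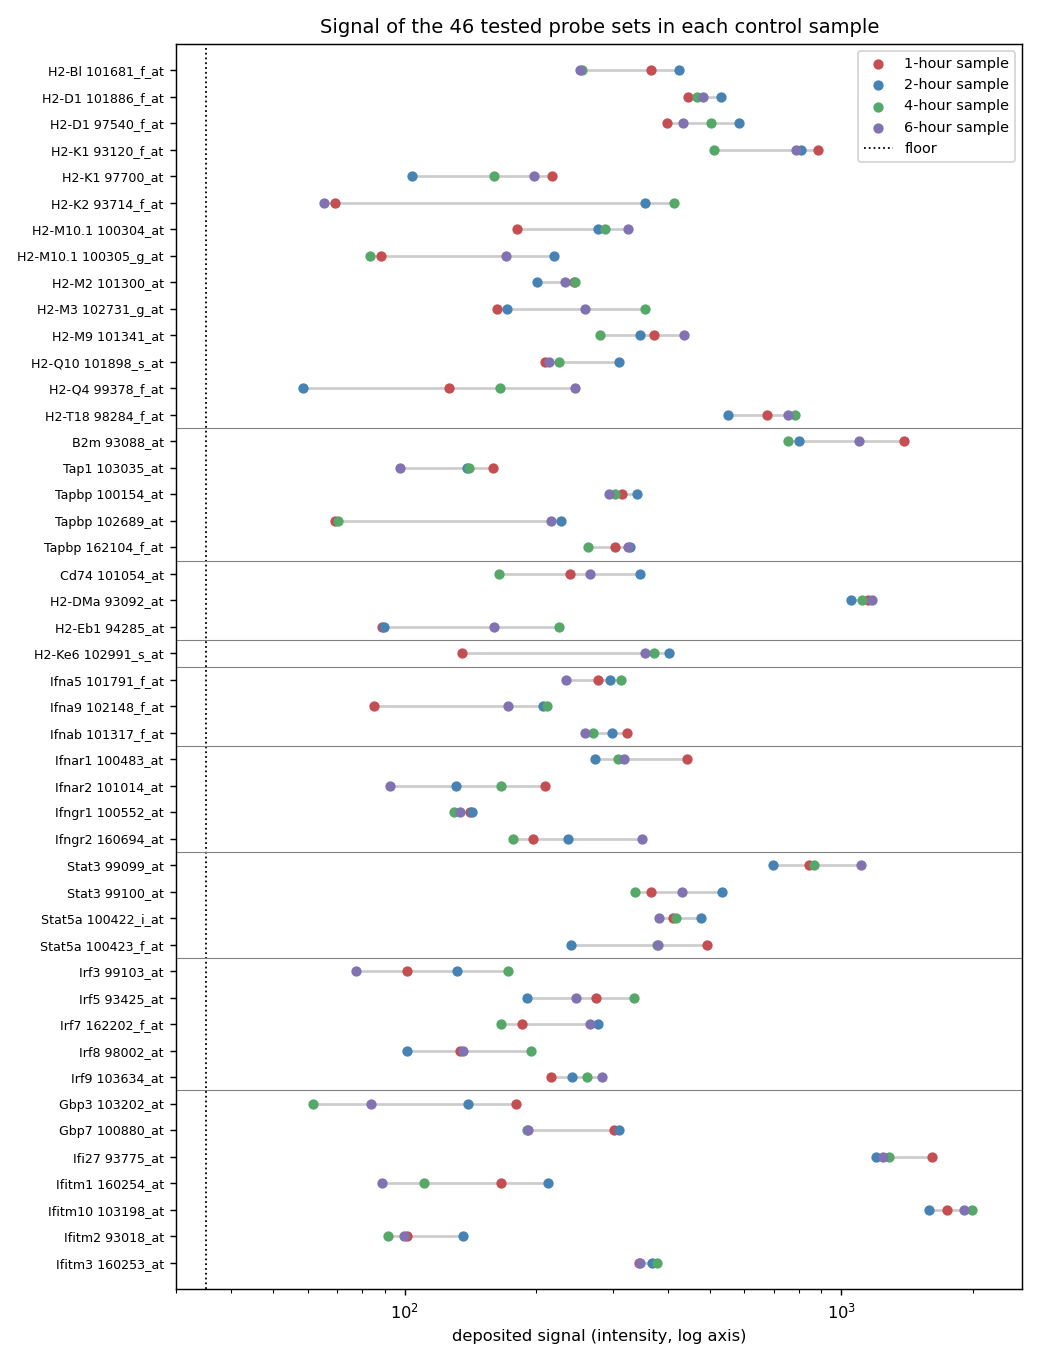
Deposited signal (log axis) of each of the 46 tested member probe sets in the 1-, 2-, 4- and 6-hour control samples. Grey lines span each range, the dotted line is the floor of 35.1, and horizontal rules separate the roles. H2-K2 has the widest span, with the 2- and 4-hour samples together at the high end and the 1- and 6-hour samples together at the low end.

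MHC class I heavy chains were represented by 24 probe sets for 16 genes, of which 14, for 11 genes, were tested. Class I genes are near copies of each other, 16 of the 24 probe sets carry a mark, and signals of such probe sets can be shared between genes. H2-D1, a classical heavy chain that presents peptides to cytotoxic T cells, was among the steadiest. Its 2 tested probe sets had 445, 529, 466 and 483 (SD 0.08 on the log2 scale) and 399, 582, 503 and 435 (SD 0.22), both highest at 2 hours and lowest at 1 hour. Another was not tested, with 16.8, 54.3, 19.5 and 75.7.

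H2-K1, the other classical heavy chain of this strain, had 885, 807, 510.3 and 787 on a tested probe set that carries the family mark. There the 4-hour sample lay -0.68 from the other 3 (SD 0.11). The unmarked H2-K1 probe set had 218, 104, 160.1 and 198, with its lowest value at 2 hours (-0.96, SD 0.23) and the 4-hour sample next. The lowest sample thus differed between these probe sets, and a further one, not tested, had 29.6, 52.0, 62.9 and 86.1.

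H2-K2, listed by RefSeq as a transcribed pseudogene of the class I family, varied most of all tested members. Its signal was 69.1, 356, 413 and 65.4, a range of 2.65 on the log2 scale or 6.28-fold. The 1- and 6-hour samples were low and nearly equal, and the 2- and 4-hour samples high and nearly equal. Without the 6-hour sample, the only one near the 1-hour value, the 1-hour difference was -2.45, against -1.62 with all 4. This probe set carries the family mark.

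H2-Q4, a non-classical class I gene, had 126, 58.4, 165 and 245. Its 2-hour sample was lowest (-1.60, SD 0.48) and its 6-hour sample highest (1.20, SD 0.81). With the floor at the 40th percentile the 2-hour difference was -0.61. H2-M3, which presents formylated peptides of bacteria and mitochondria, had 162, 172, 355 and 258 on its tested probe set, with the 4-hour sample 0.91 above the others (SD 0.36). Its other probe set, not tested, had 71.1, 77.8, 40.7 and 148, with the 4-hour sample lowest.

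H2-M10.1, of a family known from vomeronasal sensory neurons, had 180.5, 277, 287 and 325 on one tested probe set and 88.4, 220.0, 83.2 and 171 on the other. The first was lowest at 1 hour. The second was low at both 1 and 4 hours, and another, not tested, had 88.0, 56.8, 29.5 and 31.0, highest at 1 hour. H2-Bl, a class I gene that RefSeq lists as a transcribed pseudogene, had 366, 424, 255 and 252, with the 1- and 2-hour samples above the 4- and 6-hour samples.

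The remaining tested class I genes stayed within a 2-fold range. H2-T18, the thymus leukaemia antigen, had 677, 549.8, 784 and 757 (SD 0.24). H2-M9 had 373, 345, 279.5 and 435 (SD 0.26). H2-Q10, a secreted class I molecule of the liver, had 210.0, 309, 225 and 214 (SD 0.24) and H2-M2 had 244, 200.4, 245 and 233 (SD 0.17). In the 14 probe sets the median difference was -0.08, 0.11, 0.06 and 0.14 for the 4 samples in order, against 0.05, 0.01, 0.01 and 0.00 over all tested probe sets.

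Among the partners of class I, B2m, the light chain that every class I molecule needs, had 1389.9, 798, 757 and 1098. Its 1-hour sample was highest, 0.69 above the others (SD 0.28), followed by the 6-hour sample. In a limma fit of that sample against the other 3 this gave an adjusted p of 0.22. Tap1, one chain of the transporter that brings peptides into the endoplasmic reticulum, had 159, 139, 140.3 and 97.8, lowest at 6 hours (-0.55, SD 0.13). A marked Tap1 probe set, not tested, had 63.2, 63.6, 31.5 and 65.2.

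Tapbp encodes tapasin, which holds class I at that transporter, and was read by 3 tested probe sets. A pair of them had 315, 340.3, 303 and 294 (SD 0.08) and 302, 328, 262 and 324 (SD 0.14). The other had 69.1, 228, 70.3 and 217, a range of 1.70, with the 2- and 6-hour samples high and the 1- and 4-hour samples low. Its 1-hour difference was -1.14, and -0.64 with the floor at the 40th percentile. Tap2, the other transporter chain, was not tested. Its signals were 25.2, 17.4, 121 and 19.2, with only the 4-hour sample above the floor.

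**Figure D3:**
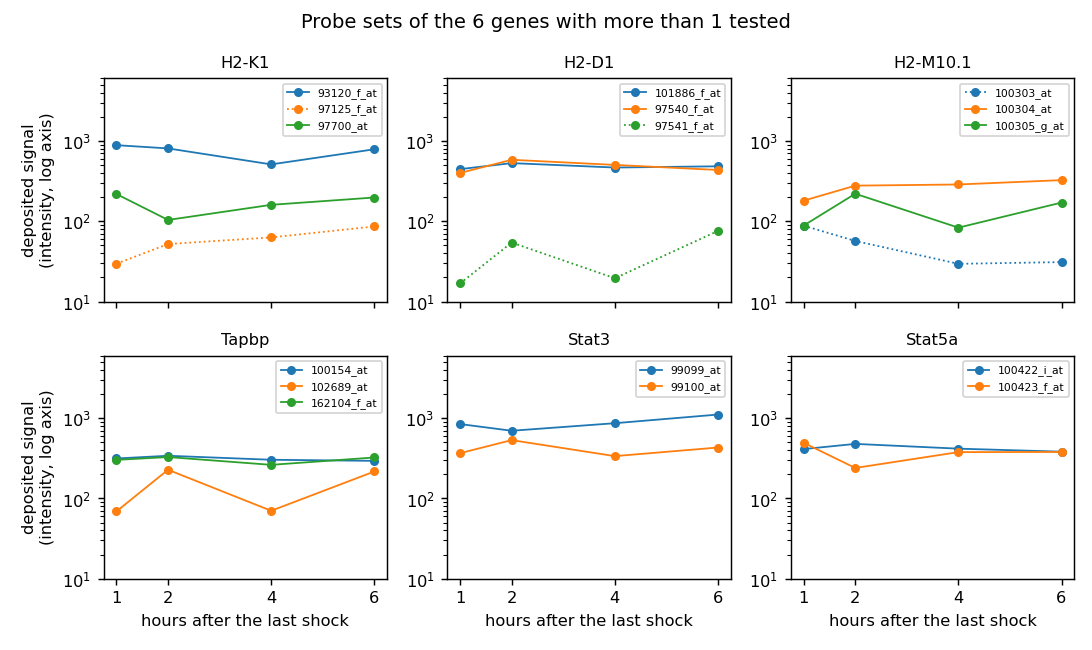
Deposited signal (log axis) against hour for every probe set of the 6 genes with more than 1 tested probe set; solid lines are tested and dotted lines not tested. Each point is 1 control sample. The H2-D1 pair runs together, while 1 of the 3 Tapbp probe sets swings between 69.1 and 228 and the other two stay between 262 and 340.3.

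MHC class II was represented by 13 probe sets for 12 genes, and 3 were tested. Cd74, the invariant chain that guides class II through the cell, had 239.5, 346, 164 and 266. The 2-hour sample was highest (0.62, SD 0.36) and the 4-hour sample lowest (-0.75, SD 0.25). H2-Eb1, a class II beta chain, ran differently with 88.6, 89.7, 226 and 160.0. Its 4-hour sample was highest (1.08, SD 0.50) and its 1- and 2-hour samples were low and nearly equal. H2-DMa, a chain of the molecule that loads peptides onto class II, was steady at 1149, 1052, 1118 and 1175 (SD 0.08). A second H2-DMa probe set, not tested, had 152, 64.3, 84.2 and 54.1.

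The classical chains H2-Aa, with 24.9, 38.6, 22.8 and 31.2, and H2-Ab1, with 44.8, 45.5, 49.2 and 33.4, were close to the floor and not tested. H2-Ea, which RefSeq lists as a transcribed pseudogene in C57BL/6J and whose loss leaves this strain without the class II E molecule, had 15.2, 25.2, 61.3 and 33.8. Its 4- and 6-hour values were above the floor after normalization. Ciita, the switch for class II transcription, had 246, 58.9, 162 and 206, lowest at 2 hours.

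Over the 16 probe sets of all 11 microglia and macrophage markers the summed signal was 11310, 10780, 11920 and 11310. Cx3cr1, a chemokine receptor of microglia, had 324, 368, 365 and 478, and Csf1r, the receptor they need to survive, had 1701, 1487, 1820.3 and 1386. Among 13 probe sets of leukocyte markers 4 were below the floor in all samples, those of Cd3e and Cd8a, both of T cells, and 2 of 3 of the pan-leukocyte gene Ptprc. Another 5 were tested and above it in every sample, for Cd4, Cd52, Cd79a, Itgax and Ms4a1. Itgax, an integrin of dendritic cells and macrophages, had 156, 92.8, 143 and 280.0, and Ms4a1, of B cells, had 369.6, 127, 290.4 and 225. A second Ms4a1 probe set, not tested, had 20.1, 28.1, 127 and 83.3, at the floor at 1 hour, where the first was highest. The summed signal over the 13 probe sets, of 10 of the 12 genes on the leukocyte list, was 1196, 1184, 1189 and 1303. In such tissue samples fewer cells of a type and less RNA per cell cannot be told apart.

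H2-Ke6 lies in the MHC but encodes a steroid and fatty acid dehydrogenase and takes no part in antigen presentation. Its tested probe set, which carries a mark, had 135, 402, 372 and 354, with the 1-hour sample alone low (-1.47, SD of the other 3 0.09). It was the 1 of 46 members (2.17%) with an adjusted p under 0.05 when the 1-hour sample was set against the other 3 with limma, at an adjusted p of 0.035, against 2.35% of all tested probe sets. In 10 alternative settings this p ran from 0.024 to 0.098 and was under 0.05 in 3. Without the 2-, 4- or 6-hour sample it was 0.091, 0.056 and 0.070. The difference itself ran from -1.50 to -1.43. The second H2-Ke6 probe set, not tested, had 32.4, 119.6, 145 and 32.1 and put the 6-hour sample as low as the 1-hour sample. The RNA and marker values of the 1-hour sample given above stand beside these.

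The interferons themselves were dim or rested on marked probe sets. Of 11 probe sets for 10 genes 8 carry a mark, and alpha interferon genes are near copies, so the gene behind a signal is uncertain. The 3 tested were all marked. Ifna5 had 277, 295, 312 and 234 (SD 0.19) and Ifnab had 322, 298, 269.5 and 258 (SD 0.15). Ifna9 had 84.9, 207, 212 and 172, with the 1-hour sample low (-1.19, SD 0.16). With the floor at the 40th percentile that difference was -0.79. Ifng, the interferon of T and natural killer cells, had 58.2, 3.5, 43.2 and 7.8. Ifnb1, the beta interferon, had 17.8, 17.5, 107 and 72.0. Neither was tested, and each was above the floor in 2 samples.

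All 4 receptor genes had a tested probe set. Ifngr1, the ligand-binding chain for interferon gamma, was the steadiest tested member with 141, 142, 129.5 and 134 (SD 0.03). Ifngr2, its signalling partner, had 197, 236, 177 and 349, highest at 6 hours (0.76, SD 0.18). Ifnar1, a chain of the type I receptor, had 443, 274, 308 and 318, highest at 1 hour (0.62, SD 0.13, limma adjusted p 0.30). Ifnar2, the other chain, had 210.0, 131, 166 and 92.6, highest at 1 hour and lowest at 6 hours, where it lay -0.82 from the others (SD 0.38). A second Ifnar2 probe set, not tested, had 28.3, 31.6, 53.0 and 93.2, lowest at 1 hour and highest at 6 hours.

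Of 7 STAT probe sets for 5 genes, 4 were tested, for Stat3 and Stat5a. Stat3, the transducer of interleukin 6 and related cytokines, had 844, 697, 865 and 1109 on one probe set and 367, 533, 337 and 431 on the other. The first was lowest at 2 hours and highest at 6 hours. The second was highest at 2 hours and lowest at 4 hours. Stat5a, a transducer of growth hormone and several cytokines, had 412, 478, 417 and 382 (SD 0.13) and 493, 239.9, 378 and 379. The second was lowest at 2 hours (-0.83, SD 0.25), where the first was highest.

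The other STAT genes with a probe set of 1 symbol were not tested. Stat5b had 18.3, 38.6, 33.4 and 110.4, Stat6, of interleukin 4 signalling, had 17.1, 79.1, 41.3 and 13.6, and Stat4, of interleukin 12 signalling, had 20.3, 33.5, 11.2 and 66.6. Their samples above the floor were few, at 2, 2 and 1 of 4.

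Interferon regulatory factors are the transcription factors that start and answer the interferon signal. Of 9 probe sets for 7 genes 5 were tested. Irf3, which starts the beta interferon gene after virus sensing, had 101, 132, 172 and 77.5, highest at 4 hours (0.79, SD 0.35) and lowest at 6 hours (-0.74, SD 0.39). A second, marked Irf3 probe set was not tested and had 58.3, 17.4, 4.5 and 7.1, above the floor at 1 hour alone. Irf8, a factor of myeloid cells and microglia, had 134, 101, 194 and 136, also highest at 4 hours (0.70, SD 0.28), and lowest at 2 hours. Irf5 had the same order of its extremes with 275, 190.2, 335 and 247. Irf9, a DNA-binding factor of the type I interferon response, had 216, 242, 262 and 282, a narrow span (SD 0.15).

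Irf7, the amplifier of type I interferon, had 185, 276, 166 and 266 on a marked probe set and 49.8, 36.3, 104 and 43.7 on an unmarked one that was not tested. The marked one was lowest at 4 hours, where the unmarked one was highest. Irf1, whose promoter stretch above holds the gamma-activated letters, had 84.6, 128, 152 and 31.8 and was too dim for the test. Its 6-hour sample was below the floor while the others were above it.

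Of the genes named for induction by interferon few could be tested. They had 7 of 29 probe sets (24.1%) tested, and 9 of the 29 were below the floor in every sample, against 1112 of all 12422. Among the tested, Gbp3, a guanylate-binding GTPase that attacks intracellular pathogens, had 179.5, 139.6, 61.7 and 83.8. The 1-hour sample was 1.03 above the others (SD 0.54) and the 4-hour sample lay at -1.01 (SD 0.56). Raising the floor to the 40th percentile made the 1-hour difference 0.62. Gbp7, of the same family, had 301, 309, 191 and 192, with the 1- and 2-hour samples above the 4- and 6-hour samples.

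Ifitm1, a membrane protein that blocks virus entry, had 167, 213, 111 and 88.6, highest at 2 hours (0.80, SD 0.46) and lowest at 6 hours (-0.83, SD 0.44). Raising the floor to the 40th percentile made the last difference -0.49. Its relatives were steadier. Ifitm3 had 345, 368, 379 and 347 (SD 0.07), Ifitm2 101, 136, 91.6 and 99.7 (SD 0.21) and Ifitm10 1743, 1589.6, 1989 and 1908 (SD 0.13). Ifi27 had 1611, 1204, 1286 and 1249, highest at 1 hour (0.38, SD 0.05).

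The endothelial and pericyte markers also differed between the samples. Cdh5, the endothelial cadherin, had 129, 122, 132 and 65.1, and Cldn5, a tight junction protein, had 414, 638, 590.4 and 330.0, both lowest at 6 hours. Of 7 tested probe sets on that list 2 were higher at 6 hours than the mean of the others, those of Pecam1, an adhesion molecule, with 178, 160.1, 30.9 and 155, and Rgs5, of pericytes, with 167, 315, 179 and 275. The summed signal over the 13 probe sets of 10 of its 11 genes was 3088, 3294, 2662 and 2368. The 6-hour sample was lowest in 13 of 46 members (28.3%), against 24% of all tested probe sets. The 2-hour sample was lowest in as many, 13 of 46 (28.3%), against 22.8% of all. The part of endothelium in these values was not tested.

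The 61 members that were too dim to test were mostly above the floor in some samples only. They were above it in 0 samples for 12 probe sets, in 1 for 13, in 2 for 19, in 3 for 8 and in all 4 for 9. A sample at the floor gives only an upper bound on a level.

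Isg15, the ubiquitin-like protein that interferon induces strongly, had 136, 76.6, 224 and 34.9 and was also too dim on average. Ifit1, an RNA-binding antiviral protein whose promoter holds 2 response elements, was below the floor in all samples at 14.1, 23.6, 6.9 and 7.5. Gbp2 was below it as well, at 23.7, 13.7, 19.7 and 19.1. Mx1, a virus resistance GTPase that RefSeq lists as a transcribed pseudogene in this strain, had 6.4, 6.0, 24.7 and 33.7 and was above the floor in the 6-hour sample alone, after normalization. Mx2, its relative and listed likewise, was above the floor in all samples with 55.2, 115, 37.6 and 64.5, highest at 2 hours.

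The relatives of Ifit1 were above the floor in 2 samples each. Ifit2 had 52.3, 67.8, 13.6 and 15.2, with the 1- and 2-hour samples high, and Ifit3 had 39.8, 31.7, 82.5 and 29.5, highest at 4 hours. Isg20, an exonuclease that degrades viral RNA, had 13.8, 26.9, 65.7 and 9.6, above the floor at 4 hours alone. Ifi35 had 22.8, 37.6, 22.3 and 13.6, and Ifi47, a GTPase induced by interferon gamma, stayed below the floor with 8.9, 4.1, 12.4 and 22.4. Oas1g, of the family of enzymes that signal to RNase L, was below it too in all 4 samples.

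The 21 member genes with the response element had 22 probe sets, of which 8 (36.4%) were tested. The 47 without it had 64, of which 33 (51.6%) were tested. This split was not tested.

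The next comparison asked whether the members changed with the hour. A linear trend from 1 to 6 hours was fitted with limma to all 7453 tested probe sets, and 0 members passed an adjusted p of 0.05, nor did any other probe set (0%). At an unadjusted p under 0.05 there were 0 of 46 members and 465 probe sets in all (6.24%, with 3.57% higher and 2.67% lower with hours). The fit had 2 residual degrees of freedom. Among members with a positive slope the smallest p was that of H2-Q4 (1.48 ± 0.73, SE, on the log2 scale from 1 to 6 hours), followed by H2-M10.1 (0.68 ± 0.37) and H2-M3 (0.88 ± 0.48). Among those with a negative slope it was that of H2-Bl (-0.75 ± 0.34), followed by Gbp7 (-0.81 ± 0.37) and Ifitm1 (-1.13 ± 0.54). The limma adjusted p was between 0.74 and 0.75 for these 6 probe sets. The fitted slope was positive in 20 and negative in 26 members, against 3515 and 3938 of all 7453 tested probe sets.

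A further comparison asked how far each single control lay from the other 3. In the 1-hour sample 5 of 46 members lay 2-fold or more from the mean of the others (6.35% of all tested probe sets did, 1.78% above and 4.56% below). They were Gbp3 above and H2-K2, H2-Ke6, Ifna9 and a Tapbp probe set below. In the 2-hour sample there were 3 (2.99% of all, 1.27% above and 1.72% below), H2-K2 and that Tapbp probe set above and H2-Q4 below. In the 4-hour sample there were 4 (3.01% of all, 1.07% above and 1.93% below), H2-K2 and H2-Eb1 above and Tapbp and Gbp3 below. In the 6-hour sample there were 3 (3.1% of all, 1.49% above and 1.61% below), H2-Q4 and Tapbp above and H2-K2 below. Without the 2-hour sample the 4-hour count was 1 of 43 (2.33%), against 3.78% of all. Without the 6-hour sample the 1-hour count was 3 of 47 (6.38%), against 6.1% of all.

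The median difference over the 46 members was 0.00, 0.06, -0.01 and 0.04 in the order of hours. Members higher than the mean of the others numbered 23, 27, 21 and 25, against 4079, 3835, 3786 and 3728 of all 7453 tested probe sets. By the limma fit of 1 sample against 3, members with an adjusted p under 0.05 numbered 1 at 1 hour, against 2.35% of all tested probe sets. In each of the other samples they numbered 0, against 0% of all. At an unadjusted p under 0.05 they numbered 5, 2, 1 and 0, against 15.8%, 2.64%, 2.76% and 2.27% of all tested probe sets. Here the lone sample is assumed to vary like the other samples.

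**Figure D4:**
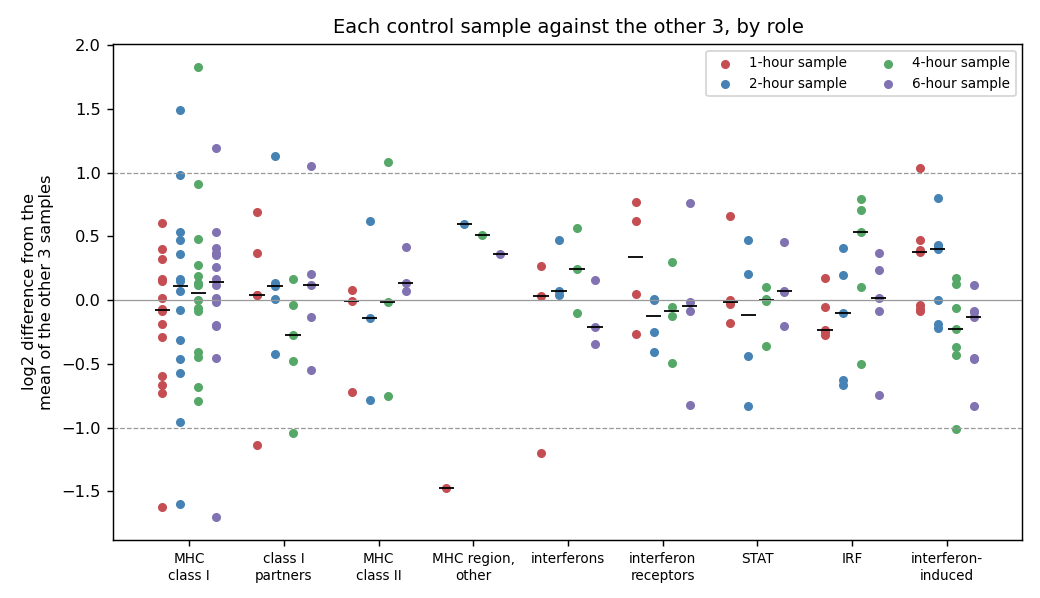
Log2 difference of each control sample from the mean of the other 3 (vertical axis) for the 46 tested probe sets, grouped by role; points are probe sets, short black lines are medians, and dashed lines mark 2-fold. Most points lie within the dashed lines, and the class I column holds the widest spread, from -1.70 to 1.83, both from H2-K2.

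Other genes of the pathway, not members by symbol, were read from a list of 64. Of 66 probe sets 31 were tested. None passed the trend at an adjusted p of 0.05 with limma, 3 had an unadjusted p under 0.05, and 5 (16.1%) had a range of 2-fold or more, against 17.9% of all tested probe sets. The 5 were Ciita, Jak3, Pdia3, Adar and Pias3. Jak3, a kinase of cytokine receptors in lymphocytes, had 433, 198, 354 and 306. Pdia3, a disulfide isomerase of the loading complex, had 277, 188, 248 and 128, and Adar, an RNA editing enzyme, 143, 285, 219.6 and 326. Pias3, an inhibitor of Stat3, had 119, 105, 191 and 250.1 on the probe set that passed the 2-fold range. Jak1, the kinase shared by the type I and type II interferon receptors, was steady at 1683, 1771, 1928 and 1764, while Tyk2, its partner on Ifnar1, had 509.6, 272, 279 and 322 and was highest at 1 hour, as Ifnar1 was. Of the immunoproteasome, which cuts peptides for class I, Psmb8 had 139, 132, 147 and 155 and Psmb10 1490.4, 924, 1432 and 1333.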

How the data were processed

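The 4 samples formed 1 group, the handled controls, with 1 array at each hour per the labels. The deposited values are intensity on a linear scale, and, from the values themselves, the authors had scaled each array to a common trimmed mean. The array software is not given in the sources used here. Of 12488 rows, 66 were control probe sets and left out. Symbols came from the array's annotation table: 10833 probe sets had 1 symbol, 396 several and 1193 none, and 10817 matched the reference table of GRCm38.p6 by gene identifier. No member's symbol changed. A signal depends on the probes as well as the transcript, so brightness across probe sets describes readings of the array and not transcript levels.

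Columns were quantile normalized, floored at the 20th percentile and put on a log2 scale. Probe sets with a mean at or above the 40th percentile were tested, 7453 in all, with limma 3.58.1 (lmFit, eBayes with an intensity trend) in R 4.3.3, two-sided, with Benjamini-Hochberg adjustment over all of them. P-values measure only the spread between these samples, which may be technical. The fits were tested on simulated data. Figures were drawn with matplotlib 3.10.9.

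The members and lists were chosen with earlier results of these data known. Members were named if preset, if they had a range of 2-fold or more, if among the 3 furthest up or down in a sample, or if among the 3 smallest p in each direction of the trend. All other members named were chosen after their values were seen. Alternatives covered scaling, floor, filter, samples, probe set choice, symbols, prior and fold.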

Additional observations from a re-analysis of the deposited data

Results flagged for a closer look

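H2-Ke6, on a marked probe set, stood out among the tested members for 1 sample far from the others. The gap between its 1-hour sample and the nearest other sample was 0.887 of its whole range on the log2 scale and so past Dixon's critical value for 4 samples. Its signals were 135, 402, 372 and 354, and that sample also stood apart in its Gapdh 3' over 5' ratio, 4.52, and in Ttr, whose part in this value was not tested. Chance gives such a gap in about 5% of groups. It was found in 1 of 46 members (2.17%) and in 6.75% of all tested probe sets.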

How the results depend on the processing

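The trend called 0 members under every alternative run. The count of members with a 2-fold range, 16, became 7 of 47 under a floor at the 40th percentile (13.6% of all). It was 44 of 107 with no filter (27.6% of all) and 9 of 28 without marked probe sets (16.9% of all unmarked ones). At 1.5-fold it was 29 (47.4% of all), and with 1 sample left out 7 to 13 (8.95% to 13.8% of all). The counts 2-fold from the other 3 were 5, 3, 4 and 3 in the 1-, 2-, 4- and 6-hour samples. With the floor at the 40th percentile they were 2, 0, 1 and 1 of 47 (4.16%, 1.15%, 1.22% and 1.33% of all). With no filter they were 12, 10, 15 and 12 of 107 (9.2%, 5.92%, 6.59% and 6.18% of all). At 1.5-fold they were 14, 12, 10 and 7 of 46 (19.7%, 11.8%, 11.6% and 11.6% of all). Without marked probe sets they were 2 at 1 hour, 1 at 2 hours and 1 at 6 hours, with no share over all computed. With probe sets above the floor in all samples the 6-hour count was 6 of 55 (4.53% of all). With 1 sample left out the 1-hour count was 3 to 5 (6.1% to 6.91% of all) and the 4-hour count 1 to 5 (3.35% to 3.78% of all). Members called in a sample against the other 3 numbered 1, 0, 0 and 0 (2.35%, 0%, 0% and 0% of all). With no filter they numbered 2, 4, 5 and 2 of 107 (1.87%, 3.74%, 4.67% and 1.87%, against 2.94%, 1.75%, 1.83% and 1.7% of all 12422). The 1 at 1 hour became 0 under that raised floor (0.0403% of all) and with no intensity trend in the prior (0% of all). It was also 0 with probe sets above the floor only (1.7% of all) and without marked probe sets (no share computed). With 1 sample left out it was 0 to 1 (1.17% to 3.25% of all). The 1 left was H2-K2, without the 6-hour sample. The 2 with no filter were Ifna11 and the Irf3 probe set not tested above, each with its other samples at the floor. Fewer probe sets entered without marked ones. For the other alternatives the cause was not tested.

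For 38 named probe sets the difference of the furthest sample was recomputed 342 times. In 335 it moved by less than the SD of the other samples, and it reversed in 0. No paired analysis was possible because the samples form 1 group. Values near the floor of 35.1 have only an upper bound, which limits the 61 members not tested: 12 were at the floor in all samples and 9 above it in all.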

Other observations

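Several dim members, left out of the tests, had 1 sample far above the rest. H2-DMb2, a chain of the class II peptide loader, had 41.9, 222, 34.3 and 29.6, and its neighbour H2-DMb1 had 62.5, 51.5, 53.9 and 174, so that the first was high at 2 hours and the second at 6 hours. H2-Ob, which restrains that loader, had 12.5, 21.7, 134 and 19.1, and Tap2 had 25.2, 17.4, 121 and 19.2, each with only the 4-hour sample above the floor. Ifi27l2a, an interferon-induced gene, alternated with 121, 33.4, 113 and 15.1. In all, 28 of the 61 members not tested had a range of 2-fold or more. The share over all untested probe sets was not computed. Tested or not, 44 of 107 members (41.1%) and 3433 of all 12422 probe sets (27.6%) had such a range. Among the tested alone it was 1331 of 7453 in all, so such ranges were common in dim probe sets of the whole array. The dim members carry no test.

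Ifih1, a sensor of viral RNA, had 93.5, 72.1, 33.4 and 9.7, and Ifi30, a thiol reductase of the class II pathway, had 79.0, 47.7, 20.4 and 15.7. Both were highest at 1 hour and below the floor at 4 and 6 hours. Ifi202b, an interferon-induced DNA-binding protein, was below the floor in all samples at 13.4, 7.7, 5.8 and 20.5. Rsad2, an antiviral enzyme outside the member list, had 106, 21.3, 26.3 and 83.7, and Socs1, an inhibitor of Janus kinases, had 177, 43.8, 37.3 and 159.6. Both were high at 1 and 6 hours and low at 2 and 4 hours. None of these was tested.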
